A study of Homo sapiens with 12 samples.

Results

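The 10 genes described here encode the subunits of the transcription factor NF-kappaB and their best-known inhibitors. They were taken by symbol from the deposited table of normalized counts, in which 10 of 10 were present among 19836 genes, and 10 of 10 passed the filter on low values. The subunit genes were NFKB1, NFKB2, REL, RELA and RELB, and the inhibitor genes were NFKBIA, NFKBIB, NFKBIE, NFKBIZ and BCL3. Poly(A)-selected RNA was sequenced from HEK293, an established cell line derived from human embryonic kidney, in 12 libraries. The groups, of 3 libraries each, were cells given a Flag vector (libraries 1 to 3), cells given the A197-270 tandem plasmids (4 to 6), vector cells treated with interferon gamma, written IFN-gamma (7 to 9), and A197-270 cells treated with IFN-gamma (10 to 12). All cells were transduced on day 1 and harvested on day 4, and IFN-gamma was added on day 2 in the latter 2 groups. The labels do not say what A197-270 encodes, and they do not say that replicates came from separate cultures. Every p-value therefore sets a difference against the variation among these samples, and that variation may be technical.

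NF-kappaB acts as a dimer of Rel proteins. RELA, REL and RELB carry transactivation domains, whereas NFKB1 and NFKB2 encode the precursors p105 and p100, which are processed to the DNA-binding subunits p50 and p52. In resting cells IkappaB proteins hold the dimers in the cytoplasm, and the IkappaB kinases mark IkappaB for ubiquitination and destruction by the proteasome. Several genes of the system, NFKBIA among them, are themselves NF-kappaB targets, so that the inhibitor is remade after activation, and IFN-gamma acts mainly through JAK kinases and DNA sites called GAS elements.

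The promoter windows below are those of NFKBIA and RELA, each called in 3 comparisons, and of NFKBIB, which was called in 2, as were RELB, REL and NFKBIZ, and was taken for its smaller adjusted p. Each is the 250 bases before a RefSeq start site (GRCh38.p14), read 5′ to 3′ on the gene's own strand, and lies outside the gene body of the GENCODE 29 annotation. Capitals mark a match to the kappaB consensus in NFKBIA and a match to the GAS motif TTCNNNGAA in RELA, and the NFKBIB window held neither. The NFKBIA window lies at chr14:35404750-35404999 on the minus strand, the RELA window at chr11:65663858-65664107 on the minus strand and the NFKBIB window at chr19:38899416-38899665 on the plus strand.
NFKBIA: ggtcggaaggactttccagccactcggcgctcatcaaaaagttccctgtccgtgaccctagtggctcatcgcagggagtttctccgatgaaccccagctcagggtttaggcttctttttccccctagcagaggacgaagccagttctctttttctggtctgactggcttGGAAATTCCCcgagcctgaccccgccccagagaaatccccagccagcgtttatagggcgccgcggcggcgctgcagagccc
RELA: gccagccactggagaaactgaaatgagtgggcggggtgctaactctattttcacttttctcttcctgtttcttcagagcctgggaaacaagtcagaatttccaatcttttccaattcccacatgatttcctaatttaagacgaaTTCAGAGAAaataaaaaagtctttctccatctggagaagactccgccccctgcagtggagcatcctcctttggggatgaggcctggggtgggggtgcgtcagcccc
NFKBIB: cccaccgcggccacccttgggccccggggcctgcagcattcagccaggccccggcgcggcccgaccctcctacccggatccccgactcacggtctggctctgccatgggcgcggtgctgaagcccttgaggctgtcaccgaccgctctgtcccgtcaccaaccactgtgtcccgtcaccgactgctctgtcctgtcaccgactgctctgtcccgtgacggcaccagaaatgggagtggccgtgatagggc

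Both strands of every window were searched, and overlapping matches were counted as 1 window. Of the 10 members, 8 had at least 1 window in the RefSeq table, 14 windows in all. The kappaB consensus was present in 8 of those 14 windows and in 6 of the 8 members (NFKB1, NFKB2, REL, NFKBIA, NFKBIB and NFKBIZ), whereas 5.21% of the 35116 windows of all genes held it. In NFKBIA the match lay 81 to 72 bases before the start site, and in NFKBIB it lay in another window, inside the annotated gene, 28 to 19 bases before a start site. The GAS motif was in 6.57% of all windows and in 1 of the 14 member windows. That was the RELA window shown above, with the match 106 to 98 bases before that window's start site. The other RELA window (chr11:65662917-65663166), which spans the start of the annotated gene, held no match to this motif. The other 3 patterns searched are not reported here. A match is a description of letters and not a sign of binding.

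Library depth ran from 31417431 to 70746868 reads, and the members' values rest on 111 reads or more in every library. The 6 markers of HEK293 cells (VIM, KRT8, KRT18, NEFM, NEFL and LIN28B) were present in every library. Their summed normalized level was 64638 to 66508 in vector cells, 76490 to 78631 in A197-270 cells, 54774 to 58939 in vector cells with IFN-gamma and 71808 to 73710 in A197-270 cells with IFN-gamma. Of 12 markers of other cell types, MS4A1 and HBB were at 0 in all libraries, PTPRC reached at most 1.18, and COL1A1, a collagen gene, made up most of the sum. Those sums ran from 1420 to 1584, 1539 to 1666, 1537 to 1851 and 1458 to 1682 in the same order of groups. The share of the total on 13 mitochondrially encoded genes was 0.355% to 0.480% in vector cells and 0.546% to 0.802% in A197-270 cells, and with IFN-gamma it was 0.405% to 0.475% and 0.478% to 0.712%. Both the HEK293 marker sum and this share thus moved with the construct, and the marker sum was also lower with IFN-gamma in both arms. VIM was the largest part of that sum, at 29486 to 42610 over all libraries. By limma at an adjusted p under 0.05, VIM, NEFM and NEFL were higher in A197-270 than in vector cells without IFN-gamma. Their log2 fold changes were 0.32, 0.25 and 0.55. KRT8, KRT18 and LIN28B were not called, at -0.0052, 0.13 and -0.12. The part of the marker sum and of the mitochondrial share in the results on the members was not tested.

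Levels can be set side by side between genes only per length, and the levels that follow are normalized counts per kb of merged exons, as the mean of 12 libraries. NFKBIA stood at 444 ± 125 (SD, n = 12), NFKBIB at 399 ± 63.2, RELA at 379 ± 41.6 and NFKB2 at 355 ± 15.9. The ranges of these 4 genes over all 12 libraries overlapped, and their order depended on the group. In vector cells without IFN-gamma NFKBIA was at 493 to 522, above NFKB2 at 339 to 377. A197-270 cells without IFN-gamma held NFKBIA at 264 to 337, below NFKB2 at 342 to 352. REL followed at 182 ± 21.8 and NFKB1 at 117 ± 9.34, and their ranges touched neither each other nor those of the 4 genes above, although that of NFKB1 overlapped that of BCL3. BCL3 at 81.2 ± 12.4, NFKBIE at 78.3 ± 6.88, RELB at 54.9 ± 10.9 and NFKBIZ at 53.0 ± 7.25 were lowest, with overlapping neighbours. Read sharing was not resolved in the sources used here, and 5702 exon bases of REL also belong to an overlapping noncoding gene on the same strand (AC010733.2), so the level of REL is uncertain. Dividing by the longest coding transcript in place of merged exons, an alternative chosen after seeing the data, put NFKBIA at 677 and RELA at 651, ahead of NFKBIB at 480.4.

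**Figure D1:**
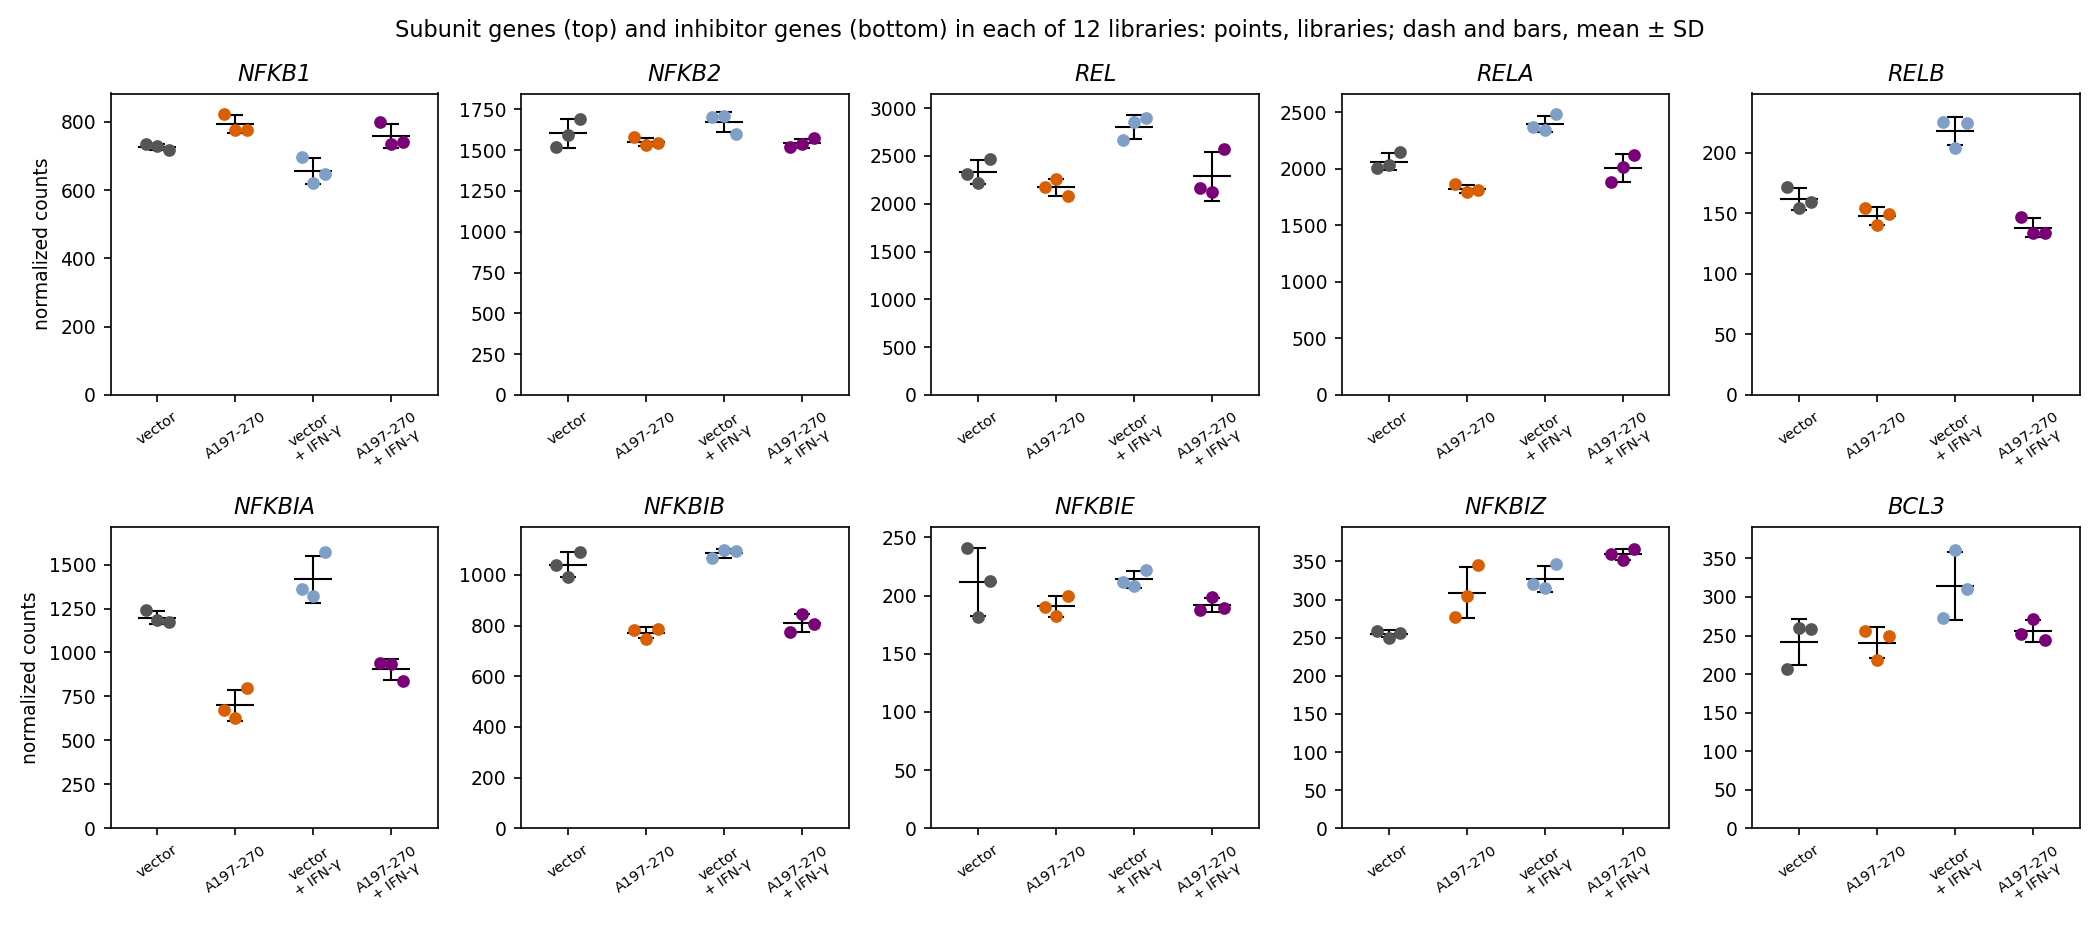
Normalized counts of each member gene in the 12 libraries, by group; points are libraries, the dash and bars are the mean ± SD of 3, and the axes start at 0. NFKBIA and NFKBIB are lower in the A197-270 groups than in the vector groups, and RELB is highest in vector cells with IFN-gamma.

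The comparison of A197-270 with vector cells without IFN-gamma asks what the construct alone went with. The transcripts of the cytoplasmic inhibitors NFKBIA and NFKBIB fell, RELA fell slightly and NFKBIZ rose. By limma at an adjusted p under 0.05, 3 of the 10 members were lower, beside 12.6% of all 14049 tested genes, and 1 was higher, beside 12.5%, which made 4 in either direction, beside 25.1%. Over all genes this was 1766 lower and 1756 higher, and with libraries scaled to equal totals 2741 lower and 1161 higher, a split that depends on the scaling. The median log2 fold change of the 10 members was -0.12, and over all tested genes it was -0.00078. In these bulk samples fewer cells of a type and less RNA per cell cannot be told apart.

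Among the subunits, RELA (chr11:65653596-65663094, minus strand, hg38), the transactivating partner of the classical dimer, stood at 2009.6, 2033 and 2147 normalized counts in vector libraries 1, 2 and 3 and at 1862, 1790.2 and 1811 in A197-270 libraries 4, 5 and 6. The groups did not overlap, and all A197-270 libraries were lower. The log2 fold change was -0.18 ± 0.049 (SE), and limma gave an adjusted p of 0.0159. Without vector library 3 that adjusted p was 0.0669. NFKB1 (chr4:102501329-102617302, plus strand), which encodes p105 and p50, was at 736, 728 and 718 in vector and 823, 777 and 778 in A197-270 libraries. Its groups did not overlap either, but its log2 fold change of 0.12 ± 0.061 did not pass the test (limma adjusted p = 0.166). For REL (chr2:60881521-60931610, plus strand), the c-Rel subunit, the vector libraries held 2308, 2218 and 2467 and the A197-270 libraries 2178, 2254 and 2080.4. RELB (chr19:45001430-45038198, plus strand), the partner of p52 in the alternative pathway, was at 172, 155 and 159 in vector and at 155, 140.0 and 149 in A197-270 libraries. NFKB2 (chr10:102394110-102402529, plus strand), the gene of p100 and p52, ranged from 1521 to 1692 and from 1533 to 1580.0. In REL, RELB and NFKB2 the libraries of the 2 groups overlapped, and the limma adjusted p was 0.308, 0.422 and 0.541.

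Of the inhibitors, NFKBIA (chr14:35401511-35404749, minus strand), which encodes IkappaBalpha, the inhibitor that is degraded and remade most rapidly, stood at 1239, 1184 and 1171 in vector libraries and 674, 627 and 799 in A197-270 libraries. The highest A197-270 library was well below the lowest vector library. The level was 1.72-fold lower (log2 fold change -0.78 ± 0.087 SE; 95% interval -0.97 to -0.59; limma adjusted p = 2.22e-05). NFKBIB (chr19:38899700-38908893, plus strand), which encodes IkappaBbeta, was at 1039, 993 and 1089.8 in vector libraries and at 783, 746 and 787 in A197-270 libraries. It too showed no overlap and was 1.35-fold lower, a log2 fold change of -0.43 ± 0.055 (limma adjusted p = 7.82e-05). The calls of both genes held under all 23 alternatives that gave a value, and 40 exon bases of NFKBIB overlap SIRT2 on the opposite strand. NFKBIE (chr6:44258166-44265788, minus strand), the gene of IkappaBepsilon, was at 241, 182 and 213 in vector and at 190.5, 182 and 199.6 in A197-270 libraries. These overlapped, and its log2 fold change of -0.14 ± 0.11 did not pass the test (limma adjusted p = 0.392).

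The atypical IkappaB proteins act in the nucleus, where they can raise or lower transcription by NF-kappaB dimers. NFKBIZ (chr3:101827991-101861022, plus strand), which encodes IkappaBzeta, was at 259, 249.7 and 256 in vector libraries and at 278, 305 and 345 in A197-270 libraries. It was higher in each A197-270 library than in any vector library, with a log2 fold change of 0.27 ± 0.09 (limma adjusted p = 0.0409). That call was kept under 12 of 23 alternatives. It was lost with DESeq2 (adjusted p = 0.0532), with no filter (0.0618), with equal totals (0.0900) and with only the libraries compared (0.0921). It was also lost without vector library 1, 2 or 3, A197-270 library 5 or 6, or A197-270 library 10 or 11 of the IFN-gamma group, and reached 0.176 without library 6. BCL3 (chr19:44747705-44760044, plus strand), a partner of p50 and p52 homodimers, was at 207, 259.7 and 258 in vector and at 256, 218 and 249 in A197-270 libraries, and the groups overlapped (log2 fold change 0.00 ± 0.12; 95% interval -0.26 to 0.26). The members whose groups did not overlap were thus 2 higher (NFKB1 and NFKBIZ), beside 19.7% of all tested genes, and 3 lower (RELA, NFKBIA and NFKBIB), beside 20.1%.

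With IFN-gamma in both arms, more of the subunit genes were called between the constructs. The interaction, given below, called no member, so the added calls are not shown to be a change in the difference between the constructs. RELB and REL were lower in A197-270 cells in addition to RELA, NFKBIA and NFKBIB, while NFKB1 was higher. The test called 5 of 10 members lower, beside 16.2% of all tested genes, and 1 higher, beside 18.6%, or 6 in either direction, beside 34.8%. Over all genes 2272 were lower and 2616 higher, and with libraries scaled to equal totals 4170 were lower and 1512 higher. The members' median log2 fold change was -0.27, against -0.0050 over all tested genes. All the comparisons share groups of libraries with another comparison and share 1 estimate of the spread per gene, so they are not independent of each other.

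RELB stood at 225, 204 and 225 normalized counts in vector libraries 7, 8 and 9 with IFN-gamma and at 147, 134 and 133 in A197-270 libraries 10, 11 and 12 with IFN-gamma. The groups lay far apart, at 1.57-fold, with a log2 fold change of -0.65 ± 0.11 (SE; 95% interval -0.89 to -0.42; limma adjusted p = 0.00043). REL was at 2664, 2854 and 2899.7 in vector and at 2163, 2119 and 2577 in A197-270 libraries. Its groups did not overlap, although library 12 came close, and the log2 fold change was -0.30 ± 0.068 (limma adjusted p = 0.00401). RELA was at 2367, 2341 and 2479.7 against 1882, 2017 and 2123. All 3 A197-270 libraries were lower, with a log2 fold change of -0.26 ± 0.049 (limma adjusted p = 0.00124). The calls of RELB, REL and RELA were kept under all 23 alternatives.

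NFKB1 moved the other way, from 698, 622 and 647 in vector to 798, 736 and 742 in A197-270 libraries. The groups did not overlap, and the log2 fold change was 0.21 ± 0.061 (limma adjusted p = 0.0162). Scaling all libraries to equal totals removed this call (adjusted p = 0.162), as did leaving out vector library 8 (0.0682) or 9 (0.0522) or A197-270 library 10 (0.0671). NFKB2 ranged from 1601 to 1711 in vector and from 1519 to 1574 in A197-270 libraries, without overlap, and its log2 fold change of -0.11 ± 0.048 did not pass the test (limma adjusted p = 0.0828). Scaled to equal totals, NFKB2 had an adjusted p of 0.00437.

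For the inhibitors, NFKBIA was at 1362, 1321 and 1569 in vector libraries with IFN-gamma and at 942, 934 and 836 in A197-270 libraries with it. The groups were again apart, with a log2 fold change of -0.65 ± 0.087 (limma adjusted p = 9.03e-05), and the A197-270 libraries with IFN-gamma all lay below the vector libraries without it. NFKBIB was at 1066, 1098 and 1094 against 775, 845 and 808. It had a log2 fold change of -0.42 ± 0.055 (limma adjusted p = 6.51e-05), close to its value without IFN-gamma, and the calls of both genes were kept under all 23 alternatives. NFKBIE was at 208 to 222 in vector and 188 to 199 in A197-270 libraries (limma adjusted p = 0.308). NFKBIZ was at 321, 315 and 347 against 359, 351 and 367 (adjusted p = 0.274), and BCL3 at 273, 361 and 310.1 against 253, 272 and 244 (adjusted p = 0.0854). None of these 3 passed the limma test, although their groups did not overlap. BCL3 passed when libraries were scaled to equal totals (adjusted p = 0.0213) and without vector library 7 (0.0383). In all, no member's groups overlapped in this comparison, with 2 members higher, beside 23.5% of all tested genes, and 8 lower, beside 22.9%.

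The response to IFN-gamma was then compared within each arm. IFN-gamma reached the cells of both arms, since GBP1, an interferon-induced GTPase gene, rose from 170 ± 17.4 to 10193 ± 531 normalized counts (SD, n = 3) in vector cells and from 22.8 ± 6.05 to 7855 ± 534 in A197-270 cells. GBP1 thus began from different levels in the 2 arms (limma adjusted p = 7.81e-10), and the part of this in the members' responses was not tested.

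In vector cells, 3 of the 5 subunit genes (RELA, REL and RELB) and both atypical IkappaB genes (NFKBIZ and BCL3) rose with IFN-gamma. The test called 5 of 10 members higher, beside 7.32% of all tested genes, and 0 lower, beside 9.79%, or 5 in either direction, beside 17.1%. Over all genes 1029 were higher and 1376 lower, and with libraries scaled to equal totals 1526 were higher and 830 lower. At an unadjusted p under 0.05 limma had 6 members higher and 1 lower, NFKB1. At an adjusted p under 0.05 edgeR called 4 higher, DESeq2 called 6 higher, and each called 0 lower. The median log2 fold change of the members was 0.23, against -0.0092 over all tested genes. Per library, using the values given above, RELB moved from 155 to 172 without IFN-gamma to 204 to 225 with it, 1.34-fold higher (log2 fold change 0.43 ± 0.11 SE; limma adjusted p = 0.0156). The log2 rise was 0.22 ± 0.049 in RELA (adjusted p = 0.00882) and 0.27 ± 0.068 in REL (adjusted p = 0.0158). NFKBIZ rose by 0.36 ± 0.09 (adjusted p = 0.0147) and BCL3 by 0.38 ± 0.12 (adjusted p = 0.0498). In these 5 genes no library with IFN-gamma was below the highest without it.

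Of those 5 calls, that of RELA was kept under all 23 alternatives. REL lost its call without vector library 1 (adjusted p = 0.0515) or 2 (0.0744) or without library 8 (0.0504) or 9 (0.0682) of the vector group with IFN-gamma. RELB lost it without library 2 (0.0641), 7 (0.0513) or 9 (0.0610), and NFKBIZ without library 2 (0.0550) or 9 (0.0682). BCL3 kept it under 8 of 23. It lost it with edgeR, quantile normalization, no filter, no trend, a pseudocount of 5 and only the libraries compared, and without library 1, 2, 4, 6, 8, 9, 10, 11 or 12, with an adjusted p of at most 0.200, reached without library 1. Only 1 member was called without library 2 or without library 9, and 3 without library 1 or library 8. NFKBIA was higher with IFN-gamma in every vector library, by 0.24 ± 0.087 on the log2 scale, and missed the threshold (limma adjusted p = 0.0765). It was called by DESeq2 (adjusted p = 0.0330), with equal totals (0.0465), with only the libraries compared (0.0438) and without A197-270 library 6 (0.0395). NFKB1 had a log2 fold change of -0.15 ± 0.061 (adjusted p = 0.108), and those of NFKB2, NFKBIB and NFKBIE were 0.06, 0.06 and 0.02. Members whose groups did not overlap were 6 higher (REL, RELA, RELB, NFKBIA, NFKBIZ and BCL3), beside 16.3% of all tested genes, and 1 lower (NFKB1), beside 19.2%.

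**Figure D2:**
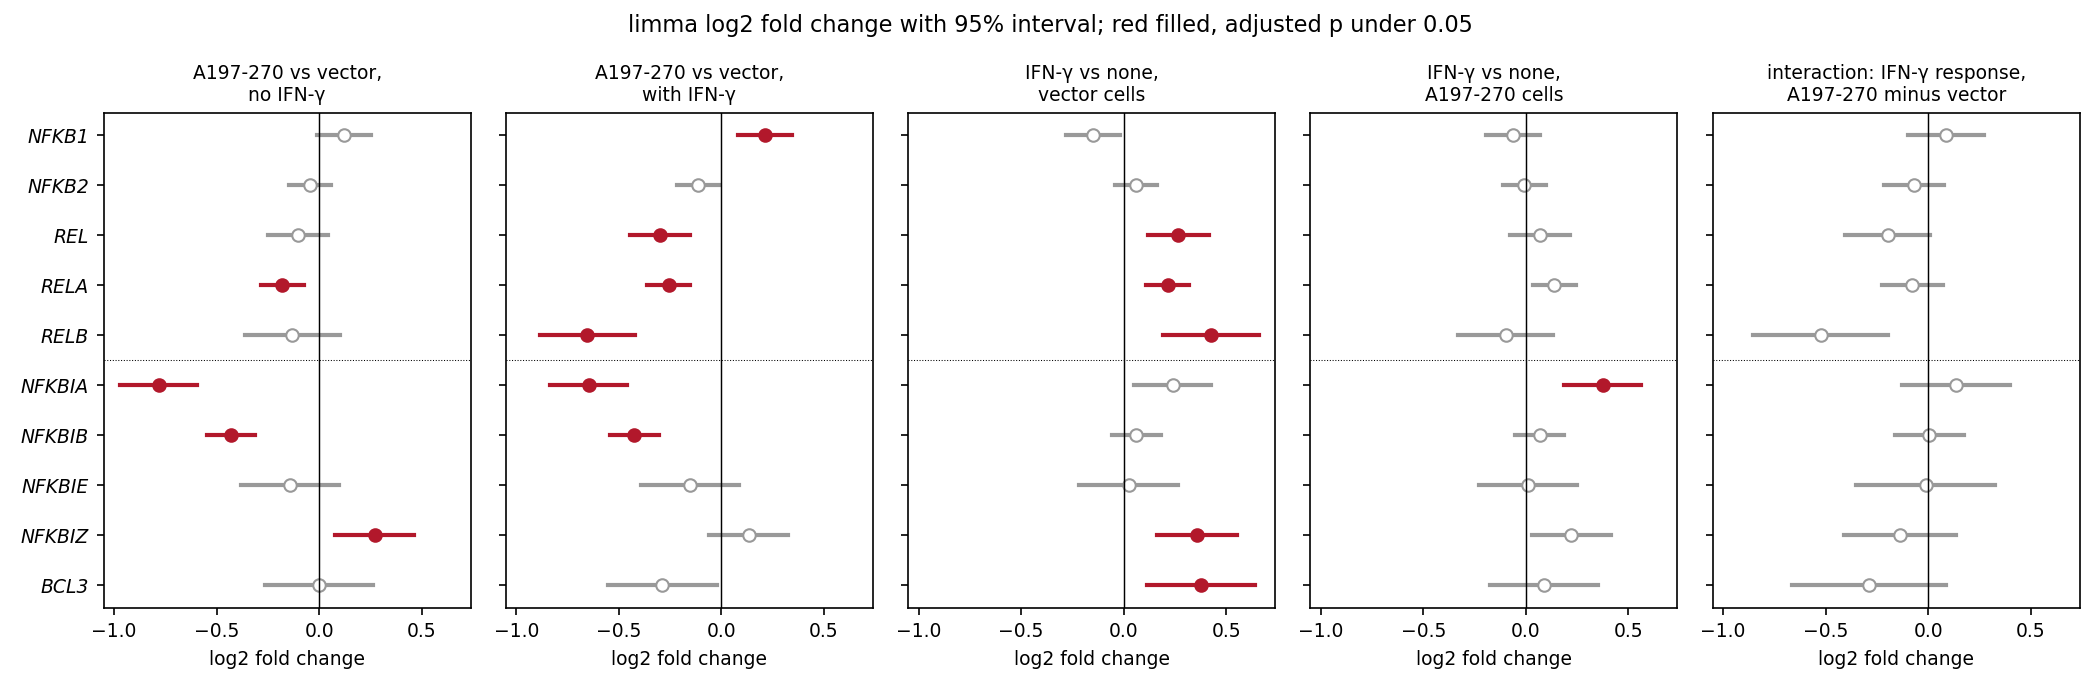
Log2 fold change of each member in the 4 comparisons and in the interaction; points are limma estimates, lines are their 95% intervals, and filled red marks an adjusted p under 0.05. The intervals of NFKBIA and NFKBIB lie below 0 in both comparisons of A197-270 with vector, and the subunit genes RELA, REL and RELB are filled for IFN-gamma in vector cells but not in A197-270 cells.

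In A197-270 cells IFN-gamma went with a rise of NFKBIA and no other call. NFKBIA was at 674, 627 and 799 without and 942, 934 and 836 with IFN-gamma, with no overlap and a rise of 0.37 ± 0.087 on the log2 scale (limma adjusted p = 0.0172). The call was lost without A197-270 library 4 (adjusted p = 0.0748), 5 (0.0681), 10 (0.0691) or 11 (0.0696), and in a fit without the mean-variance trend (0.0530). Of the 10 members, 1 was thus higher, beside 4.19% of all tested genes, and 0 were lower, beside 3.0%, or 1 in either direction, beside 7.19%. At an unadjusted p under 0.05 limma had 3 members higher and 0 lower. At an adjusted p under 0.05 edgeR and DESeq2 each called 1 higher and 0 lower. The members' median log2 fold change was 0.07, against -0.0058 over all tested genes. RELA (log2 fold change 0.14 ± 0.049; adjusted p = 0.114) and NFKBIZ (0.22 ± 0.09; adjusted p = 0.172) were higher in all 3 libraries with IFN-gamma than in any without it and did not pass the test. RELA passed without library 10 (adjusted p = 0.0492). RELB had a log2 fold change of -0.10 ± 0.11 (adjusted p = 0.663) and REL of 0.07 ± 0.068 (adjusted p = 0.615), and the libraries of each overlapped. The members without overlap were 3 higher, beside 12.1%, and 0 lower, beside 13.0%.

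Whether the response to IFN-gamma differed between the arms was tested by the interaction, in which the response of the vector arm is subtracted from that of the A197-270 arm. No member passed, with 0 higher, beside 0.819% of all tested genes, and 0 lower, beside 0.0783%, or 0.897% in either direction. At an unadjusted p under 0.05 limma had 1 lower, RELB, and 0 higher. At an adjusted p under 0.05 edgeR and DESeq2 each called 0 in either direction. RELB had an interaction of -0.52 ± 0.15 on the log2 scale (SE; 95% interval -0.85 to -0.20), with a limma adjusted p of 0.177. In a fit without the mean-variance trend its adjusted p was 0.0260. For REL the interaction was -0.20 (95% interval -0.40 to 0.01) and for BCL3 -0.29 (95% interval -0.66 to 0.09). NFKBIA had 0.14 (95% interval -0.13 to 0.40) and NFKBIB 0.01 (95% interval -0.16 to 0.17). The calls of RELA, REL, RELB, NFKBIZ and BCL3 in vector cells and their lack in A197-270 cells are therefore not shown to be different responses.

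A ratio within the family was described by adding the levels per kb of NFKBIA, NFKBIB and NFKBIE and dividing by those of the 5 subunits. In it NFKB1 and NFKB2, which encode precursors, were counted only as subunits. The ratio was 1.01, 0.937 and 0.929 in vector libraries and 0.667, 0.648 and 0.748 in A197-270 libraries. With IFN-gamma it was 0.928, 0.930 and 1.01 in vector and 0.785, 0.806 and 0.704 in A197-270 libraries. All 6 A197-270 libraries were below all 6 vector libraries, and within an arm the libraries with and without IFN-gamma overlapped. No test was made of this sum, which adds measures already tested gene by gene. The inhibitors' summed level per kb went from 1035 ± 34.3 in vector to 701 ± 48.8 in A197-270 cells (SD, n = 3), and the subunits' from 1082 ± 37.7 to 1019.6 ± 18.7. With IFN-gamma the inhibitors stood at 1147 ± 61.2 and 804 ± 30.5 and the subunits at 1201 ± 7.53 and 1052 ± 39.9. NFKBIA made up 48.8% ± 1.44 of the inhibitor level in vector cells and 42.0% ± 2.41 in A197-270 cells. The level per kb of NFKB2 relative to NFKB1 was 3.08 ± 0.202 in vector, 2.73 ± 0.0473 in A197-270, 3.56 ± 0.240 in vector with IFN-gamma and 2.84 ± 0.165 in A197-270 cells with IFN-gamma. The mean ratio of inhibitors to subunits was 0.957 ± 0.0423, 0.688 ± 0.0527, 0.955 ± 0.0456 and 0.765 ± 0.0536 in the same order. These are transcript levels, and protein was not measured here.

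**Figure D3:**
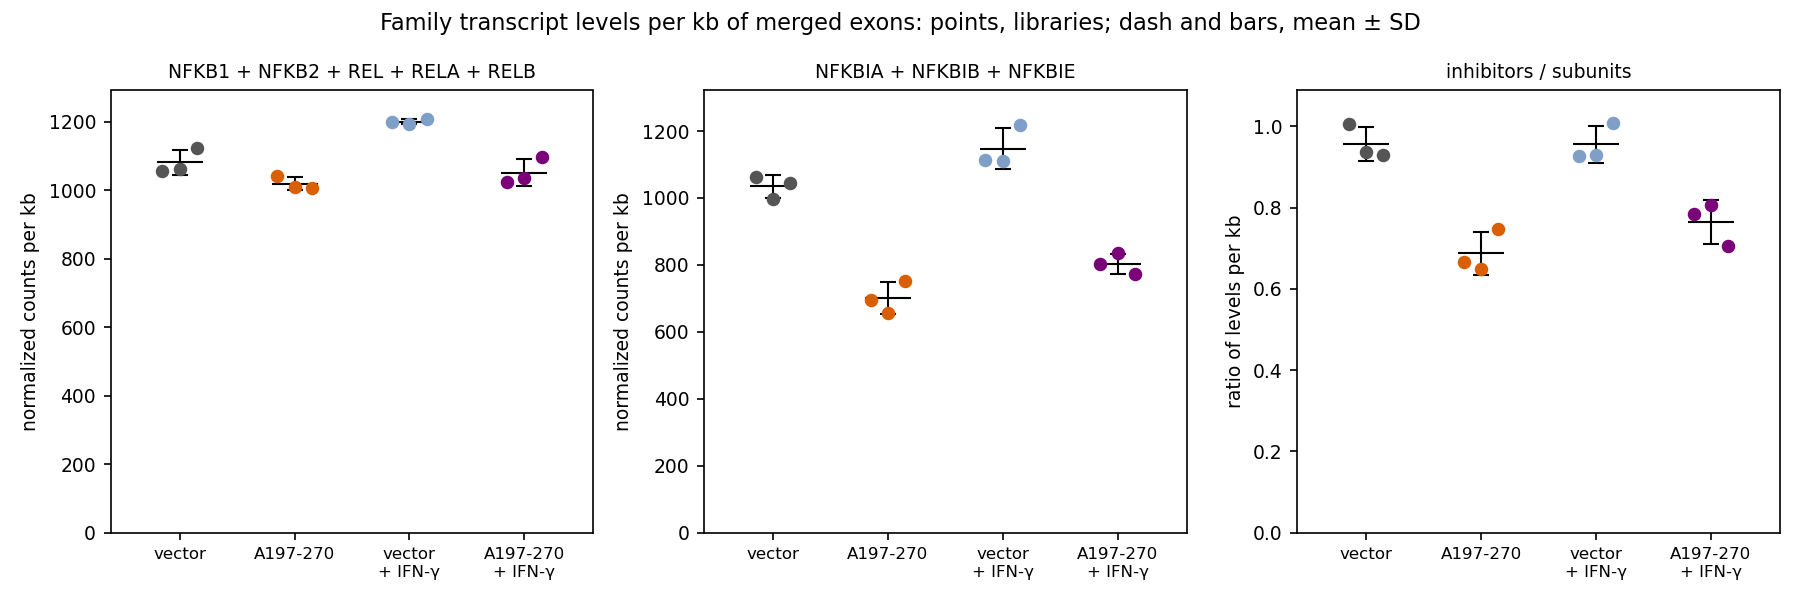
Summed levels of the 5 subunit genes and of NFKBIA, NFKBIB and NFKBIE in normalized counts per kb of merged exons, and their ratio, in each library; points are libraries, the dash and bars are the mean ± SD of 3, and the axes start at 0. The ratio is 0.648 to 0.806 in the A197-270 libraries and 0.928 to 1.01 in the vector libraries.

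The rest of the pathway was read from lists chosen with earlier results of these data known. A list of 10 genes held kinases upstream of NF-kappaB and their non-kinase partners IKBKG, TAB1, TAB2 and TAB3. Of these 10, 2 were lower in A197-270 than in vector cells both without and with IFN-gamma. In those comparisons 0 were higher, and for IFN-gamma 0 were called in either arm. Over all tested genes 12.6% were lower without and 16.2% with IFN-gamma, so these counts are near the background. The 2 were CHUK, the gene of IKKalpha, with log2 fold changes of -0.23 ± 0.038 and -0.27 ± 0.038 (SE; limma adjusted p = 0.00068 and 0.000152), and TBK1, an IKK-related kinase, with -0.15 ± 0.05 and -0.18 ± 0.05 (adjusted p = 0.0446 and 0.0123). The genes of the partners of CHUK in the classical kinase complex, named after their values were seen, were not called. IKBKB, which encodes IKKbeta, had log2 fold changes of -0.09 and -0.02 (limma adjusted p = 0.470 and 0.904), and IKBKG, which encodes NEMO, had 0.08 and -0.16 (adjusted p = 0.756 and 0.442).

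Of 16 receptors and adaptors, 14 were tested. In A197-270 against vector cells 1 was higher and 2 lower without IFN-gamma, and 4 were higher and 3 lower with it, beside 25.1% and 34.8% of all tested genes called in either direction. IFN-gamma raised 3 and lowered 1 in vector cells and raised 3 in A197-270 cells, beside 17.1% and 7.19% of all tested genes called in either direction. TLR3, the endosomal receptor of double-stranded RNA, was 3.61-fold lower in A197-270 cells without IFN-gamma (log2 fold change -1.85 ± 0.21; limma adjusted p = 2.51e-05), rose with IFN-gamma by 1.71 and 3.18 on the log2 scale in the 2 arms and had the list's only called interaction (1.46 ± 0.30; adjusted p = 0.0273). TNFRSF12A, the receptor of TWEAK, was lower in A197-270 cells in both conditions, with log2 fold changes of -0.39 and -0.45 (adjusted p = 0.00367 and 0.000939). IRAK4, a kinase that docks on MYD88, was higher, by 0.33 and 0.68 (adjusted p = 0.00892 and 3.15e-05), and was lower with IFN-gamma in vector cells. With IFN-gamma IL1RAP, a subunit of the interleukin-1 receptor, was also higher (0.27 ± 0.055; adjusted p = 0.00184), while CD40, a receptor that can act through the alternative pathway, was lower (-0.37 ± 0.12; adjusted p = 0.0273). CD40 was raised by IFN-gamma in vector cells (0.59 ± 0.12; adjusted p = 0.00401), and TNFRSF1A, the main TNF receptor gene, in both arms, by 0.21 and 0.20.

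Of 19 genes of the ubiquitin machinery, 2 were higher and 4 lower in A197-270 than in vector cells, and with IFN-gamma 4 were higher and 3 lower, which is near the 25.1% and 34.8% of all tested genes. TNFAIP3, which encodes the deubiquitinating feedback inhibitor A20, was 1.70-fold lower (log2 fold change -0.76 ± 0.095 SE; limma adjusted p = 5.54e-05) and with IFN-gamma 1.43-fold lower (adjusted p = 0.000867). Its libraries held 821, 654 and 674 normalized counts in vector cells and 387, 408 and 467 in A197-270 cells, without overlap. TNIP1, the gene of an A20-binding protein, was higher by 0.29 and 0.33 (adjusted p = 0.000231 and 5.29e-05). RBCK1, the gene of HOIL-1 in the linear ubiquitin ligase, was lower without IFN-gamma (-0.40 ± 0.058; adjusted p = 0.000215) and rose with IFN-gamma by 0.54 and 0.80 in the 2 arms. FBXW11, a substrate receptor for phosphorylated IkappaB, was higher without IFN-gamma by 0.15 (adjusted p = 0.00874), and with IFN-gamma CUL1, a scaffold of the same ligase, was higher by 0.21 (adjusted p = 0.00242) and BIRC2, the gene of the ligase cIAP1, had a log2 fold change of -0.28 (adjusted p = 0.000514), as it did without IFN-gamma (-0.28; adjusted p = 0.00078). In vector cells IFN-gamma raised 2 and lowered 3 of the 19, and in A197-270 cells it raised 2 and lowered 0, beside 17.1% and 7.19% of all tested genes called in either direction. Of 7 further IkappaB-like or NF-kappaB-binding regulators, 1 was lower in A197-270 than in vector cells without IFN-gamma, beside 12.6% of all tested genes. This was NKIRAS2, a Ras-like inhibitor of IkappaB degradation, at -0.12 ± 0.04 (limma adjusted p = 0.0391). In the comparison of constructs with IFN-gamma, for IFN-gamma in each arm and in the interaction, 0 of the 7 were called. Over all tested genes 34.8%, 17.1%, 7.19% and 0.897% were called there in either direction.

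Target genes outside the family were followed in a list of 28, of which 21 were tested and 7 were too low. In A197-270 against vector cells 8 were lower and 2 higher without IFN-gamma, and 6 were lower and 0 higher with it. Of all tested genes 12.6% were lower and 12.5% higher without IFN-gamma, and 16.2% and 18.6% with it. The list's median log2 fold change was -0.25 and -0.17, against -0.00078 and -0.0050 over all tested genes. CCL5, a chemokine gene, had the smallest adjusted p among the lower targets in both conditions, with log2 fold changes of -5.93 ± 0.15 and -4.18 ± 0.15 (limma adjusted p = 5.99e-13 and 3.7e-10). TAP1, a peptide transporter gene that interferon also controls, was lower without IFN-gamma (-1.58 ± 0.063; adjusted p = 1.61e-10), and CSF1, a macrophage growth factor gene, was lower both without (-0.49 ± 0.081; adjusted p = 0.00059) and with it (-0.35 ± 0.081; adjusted p = 0.00483). The 2 higher targets were SOD2, a mitochondrial superoxide dismutase gene (0.14 ± 0.043; adjusted p = 0.0308), and GADD45B, a stress sensor gene (0.32 ± 0.10; adjusted p = 0.0372). IFN-gamma raised 11 of the 21 in vector cells and 10 in A197-270 cells, beside 7.32% and 4.19% of all tested genes, and lowered 0 in either. TAP1 and IRF1, an interferon-induced transcription factor gene, had the smallest adjusted p in both arms, with TAP1 at 3.35 and 4.76 and IRF1 at 3.55 and 4.09 on the log2 scale. The interaction called 5 targets higher and 0 lower, TAP1 (1.41 ± 0.09; adjusted p = 9.22e-08) and CCL5 (1.75 ± 0.21; adjusted p = 0.000147) among them.

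**Figure D4:**
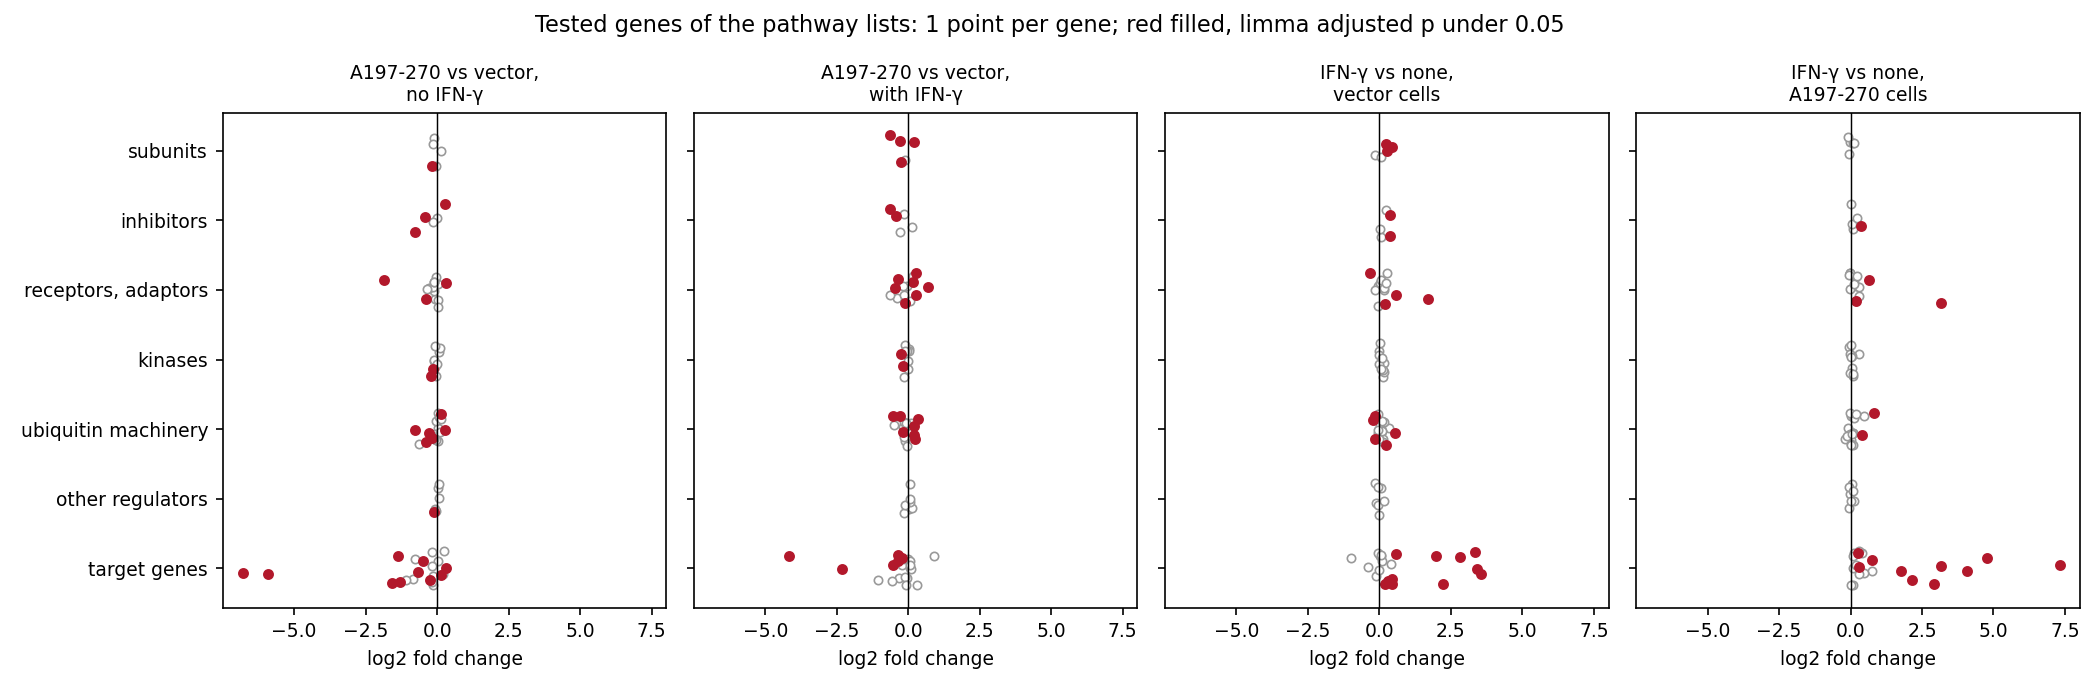
Log2 fold changes of the tested genes of each pathway list in the 4 comparisons of 2 groups; each point is 1 gene, placed at random height within its list, and filled red marks a limma adjusted p under 0.05. The target genes spread widely, to beyond the -5.93 of CCL5 in A197-270 against vector cells without IFN-gamma. The list labelled kinases, which includes their non-kinase partners, lies near 0, with CHUK at -0.23.

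The members differed in how far their group means spread on the log2 scale, from 0.11 in NFKB2 and 0.17 in NFKBIE to 1.02 in NFKBIA, 0.65 in RELB and 0.49 in NFKBIB. For these last 3, the genes with the most similar profile over the 12 libraries were sought among 12737 others with a mean of at least 50, by Pearson's r on the log2 scale, as a description of libraries that share 4 groups. NFKBIA was closest to C6orf48 (r = 0.971), SDC4 (r = 0.969) and UBE2T (r = 0.969). For RELB the closest were C11orf84 (r = 0.956), LINGO1 (r = 0.954) and GIT2 (r = 0.933). For NFKBIB they were TAF5 (r = 0.983), TSR2 (r = 0.982) and EFNA1 (r = 0.977).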

How the data were processed

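The authors deposited 1 table of normalized counts, treated here as a signal, since each column proved to be reads over 1 scaling factor. The tools DESeq2 1.22.1, StringTie 1.3.3b and HISAT2 2.1.0 and the build hg38 appear, without roles, in the submitters' processing notes. The annotation release, the use of strand and the handling of shared reads are not given in the sources used here. Within 0.001 of a read, 100% of the deposited values were whole multiples of what 1 read was worth, so the reads could be recovered.

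Of the 19836 gene identifiers, 19804 matched GENCODE 29 without their version, all 10 members among them. Differences were tested two-sided with limma 3.58.1 (R 4.3.3; mean-variance trend) on log2(value + 1) in 1 model of the 4 groups, over 14049 genes with a mean of at least 10, with Benjamini-Hochberg adjustment within each comparison and a threshold of 0.05. Fold changes are on that scale and are too small for low genes. Alternatives included edgeR 4.0.16 and DESeq2 1.42.0 on the recovered reads, other scalings, filters and pseudocounts, and leaving out each library. Between 22 and 23 alternatives gave a value for each gene and comparison.

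The 10 members and the pathway lists were chosen with earlier results of these data known. The text names all members, up to 2 called genes per list, comparison and direction with the smallest adjusted p, and the 3 genes most similar to each of 3 members. In simulated counts for the same 14049 genes, limma called 67.9% of genes changed 1.5-fold and 86.2% of those changed 2-fold for A197-270 against vector without IFN-gamma, with 4.09% false calls. The interaction gave 55.6% and 77.6%, with 6.45% false calls. The simulation changed 200 genes, all in A197-270 cells without IFN-gamma, whereas 3522 genes were called in the real comparison of those cells with vector. Its smallest change was 1.5-fold, larger than that of RELA in that comparison (1.13-fold). These rates therefore do not describe such small differences. Promoter windows came from RefSeq (GRCh38.p14). A gene within this rule is not reported here.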

Additional observations from a re-analysis of the deposited data

How the results depend on the processing

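Of 1140 values of single members under the alternatives, 1058 kept their direction and side of the threshold, 45 lost a call, 10 gained 1 and 27 changed sign, all of the last in differences that were not called. The cause was not tested. Scaling to equal totals gave 1161 higher and 2741 lower genes for A197-270 against vector without IFN-gamma, 1512 and 4170 with it, 830 lower for IFN-gamma in vector cells and 23 lower in the interaction. It shifted the median of all genes by -0.05, -0.09, 0.04, 0.00145 and -0.04 on the log2 scale in the 5 comparisons. DESeq2 called 219 genes higher and 60 lower in the interaction. The count of members higher in A197-270 than in vector cells without IFN-gamma was 0 with no filter, equal totals, only the libraries compared or DESeq2, and with IFN-gamma it was 0 with equal totals. Quantile normalization gave 1 member lower with IFN-gamma in vector cells, NFKB1 (adjusted p = 0.0483). Without the mean-variance trend 0 members were higher with IFN-gamma in A197-270 cells and 1 was lower in the interaction, RELB. With the longest coding transcript as the length, chosen after seeing the data, the ratio of inhibitors to subunits was 0.884 in vector, 0.625 in A197-270, 0.890 in vector with IFN-gamma and 0.702 in A197-270 cells with IFN-gamma.

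Signs changed as follows. BCL3 in A197-270 against vector cells without IFN-gamma was -0.0492 with equal totals, -0.00817 with edgeR, -0.0182 with DESeq2 and -0.107 to 0.0714 when libraries were left out. NFKBIE under quantile normalization was -0.0364 for IFN-gamma in vector cells (-0.0810 to 0.121 without single libraries) and -0.0403 in A197-270 cells (-0.0209 to 0.0453). The interaction of NFKBIB was -0.0334 with equal totals, -0.00701 with TMM, -0.00589 with quantile normalization, -0.00301 with edgeR and -0.0287 to 0.0386 without single libraries, and that of NFKBIE was -0.109 to 0.0930. For IFN-gamma in A197-270 cells NFKB2 ranged from -0.0211 to 0.00584 and REL from -0.0191 to 0.122.

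Leaving out each library in turn gave 1319 to 1830 genes higher and 1268 to 1881 lower for A197-270 against vector without IFN-gamma, with 0 to 1 member higher and 2 to 3 lower. With IFN-gamma it gave 2074 to 2666 and 1622 to 2315 genes, with 0 to 1 member higher and 5 to 6 lower. For IFN-gamma in vector cells it gave 592 to 1156 and 801 to 1443 genes, with 1 to 5 members higher and 0 lower, and in A197-270 cells 389 to 604 and 185 to 489 genes, with 0 to 1 member higher and 0 lower. The interaction had 96 to 151 genes higher and 6 to 78 lower, and 0 members in either direction. The ratio of inhibitors to subunits was 0.933 to 0.971, 0.658 to 0.707, 0.929 to 0.969 and 0.745 to 0.795 in the 4 groups. No paired analysis was possible because each sample has a number of its own from 1 to 12.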
